A study of Mus musculus with 12 samples.

Results

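The transcriptome of brain endothelial cells (BECs) from mice lacking cortistatin (Cort-/-) was compared between cultures exposed to oxygen-glucose deprivation followed by reoxygenation (OGD-R) and cultures kept under normoxia and normoglycaemia (NX/NG). The members are all Cort-/- libraries with a column in the deposited tables: 2 under NX/NG (replicates 1 and 2) and 2 after OGD-R (replicates 1 and 3), 4 of the 12 samples of the series. Replicate 3 under NX/NG and replicate 2 after OGD-R were not used here. All 4 cultures were primary brain microvascular cells of Cort-/- mice on a C57BL/6J background (C57BL/6 in the labels), enriched for endothelium with puromycin, and each replicate was pooled from 3 mice. OGD-R cells spent 4 h at 1% oxygen in medium without glucose and serum, then 20 h in complete medium with 10% serum at 21% oxygen. Control cells stayed in medium with 5.5 mM glucose throughout, so loss of oxygen, glucose and serum and the return of fresh medium cannot be told apart. The sample labels give a stroke model (MCAO) as the disease state of every sample, controls included, although the insult was applied in culture. The culture scheme gives the mice as 8 weeks old.

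Cortistatin is a neuropeptide related to somatostatin that acts through somatostatin receptors, and Cort-/- cells lack it throughout, so the comparison describes the response to OGD-R in its absence. Brain endothelium forms the blood-brain barrier through tight and adherens junctions, selective transporters and a basement membrane. Low oxygen stabilises hypoxia-inducible factors (HIF), which switch on glycolytic enzymes and angiogenic factors, and serum or growth factors switch on immediate early genes such as Fos and the Egr family within minutes. Both programmes are normally transient, and the cells here were collected 20 h after oxygen and glucose returned.

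The tables hold RPKM, that is, reads adjusted for the length of the gene and the size of the library. Nearly all values corresponded to a whole number of reads, so reads could be recovered, and the 4 libraries held between 12386217 and 12390428 reads on genes. They were scaled together over the 27321 genes listed in both tables, of which 26523 had a read in a Cort-/- library and were tested. Cort had 0 reads in all 4 libraries, a count that allows up to 3 reads in each. Since the 6 wild-type libraries of these tables held between 0 and 2 Cort reads, its absence does not check the genotype. The somatostatin receptors were barely detected, with 7 to 19 reads of Sstr2 and 4 to 16 of Sstr4 per library, Sstr1 had none, and Sst, Sstr3, Sstr5 and Ghsr were not listed in both tables. Endothelial markers were abundant in every library. The summed level of 13 endothelial markers was 1640 and 1790 RPKM under NX/NG and 1730 and 1410 RPKM after OGD-R, with VE-cadherin (Cdh5) between 510 and 735 RPKM and Slco1a4, a barrier marker in vivo, at 0.213 RPKM or less. OGD-R replicate 3 stood apart, with 18S ribosomal RNA (Rn18s-rs5) at 0.0951% of its reads against 8.02% to 10.6% in the other 3 libraries. Over the 14040 genes that reached 1 RPKM in 2 or more libraries, its median absolute log2 difference from the others was 0.200 to 0.231, whereas OGD-R replicate 1 differed from the NX/NG libraries by 0.129 and 0.130, about the distance between the NX/NG libraries themselves (0.128).

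No gene reached an FDR of 0.05 in the comparison of OGD-R with NX/NG (limma on log2(RPKM + 0.1), Benjamini-Hochberg). That is 0 of 26523, or 0%, with a lowest adjusted p of 0.45. At an unadjusted limma p under 0.05, 581 genes (2.19%) were higher and 490 (1.85%) lower after OGD-R, so that 54.2% of them were higher. This split moved to 64.1% with scaling to library totals and to 71.2% with RPKM as deposited. It turned to mostly lower with limma-voom (503 higher and 552 lower, 47.7% higher), with a term for low ribosomal RNA in a fit of all groups (49%) and without NX/NG replicate 1 (44.7%) or NX/NG replicate 2 (42.7%). Together they make 4.04% of the genes, below the 5% that such a threshold admits when nothing differs. Every list below is therefore a description of which genes led an ordering in which none passed correction, and its counts are to be read against 2.19% and 1.85%. Counts with an OGD-R library left out are instead to be read against the larger shares of those fits, given later in this paragraph. Among the 14040 genes at 1 RPKM or more, both OGD-R libraries lay above both NX/NG libraries for 2298 (16.4%) and below both for 2504 (17.8%). Without OGD-R replicate 3, 4.6% of genes were higher and 3.03% lower at this p, and without OGD-R replicate 1, 6.84% were higher and 6.91% lower, the lone library being assumed to vary like the NX/NG pair. The plot of gene lists sets each list's share against the shares over all genes.

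**Figure D1:**
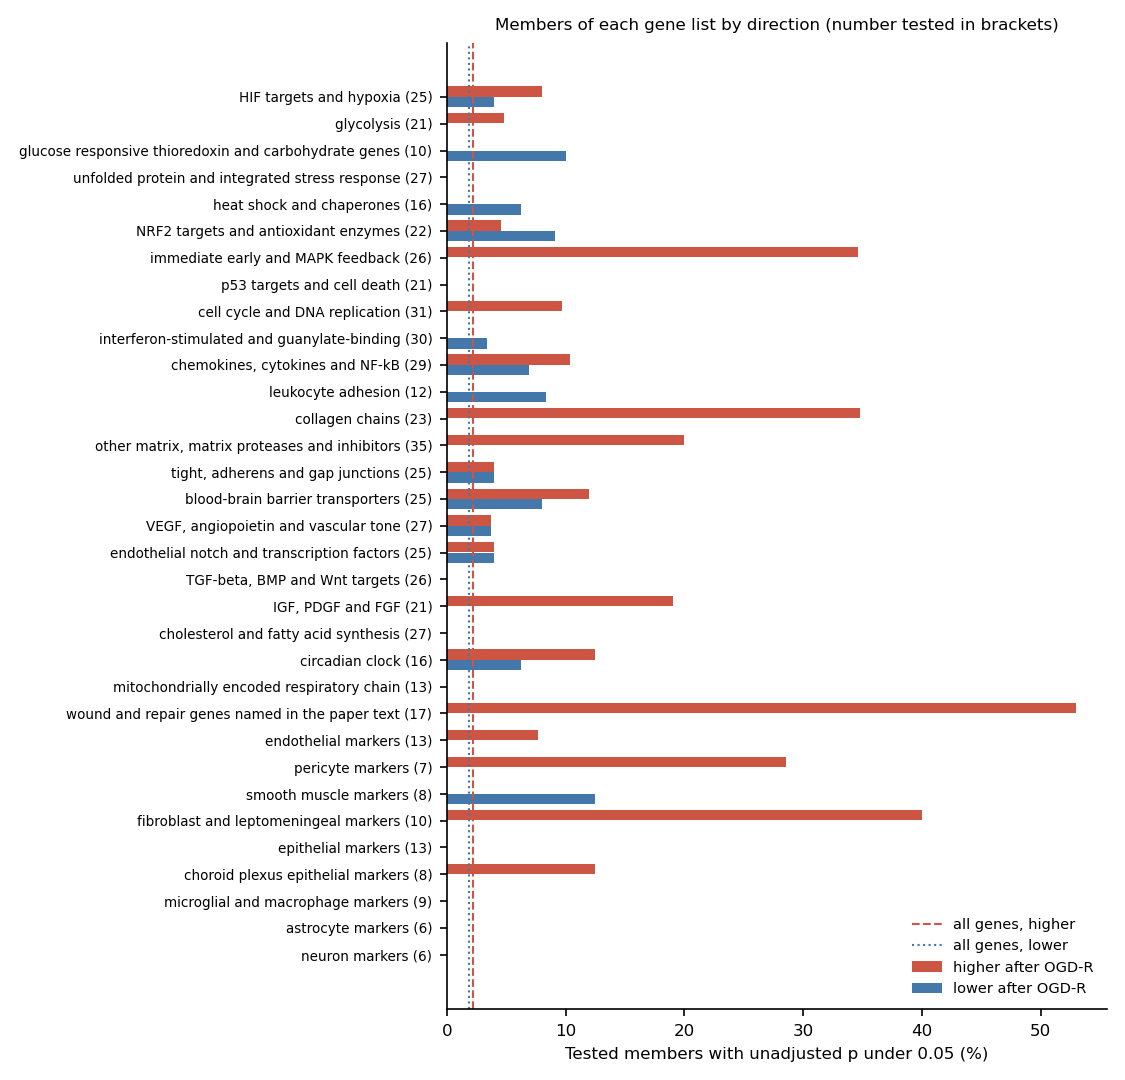
Share of tested members of each gene list (number tested in brackets) that were higher (red bars) or lower (blue bars) after OGD-R at an unadjusted limma p under 0.05, in percent, with vertical lines at the shares over all genes, 2.19% higher and 1.85% lower. Immediate early genes (9 of 26) and collagen chains (8 of 23) have members in the higher direction and none in the lower one, and no gene in any list passed an FDR of 0.05.

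Immediate early transcription factors, which couple growth factor and stress signals to later gene expression, held 9 members that were higher at an unadjusted p under 0.05 and 0 that were lower, of 26 tested, with a median log2 difference of 0.17 against -0.01 over all genes. The 9 were Egr1, Egr2, Egr3, Nr4a1, Nr4a2, Fos, Junb, Ier2 and Ier3. RefSeq promoters (GRCm38.p6) were found for 6 of them, and for Cry1, Nr1d1 and Nr1d2 of the clock described below. The 250 bases before the start are shown for 4 of the 6 and for Nr1d1, with the Egr2 start chosen after its motifs were seen. Being higher in both OGD-R libraries did not set these 4 apart, since it held for all 9. Such windows are given because serum and cAMP responses of such genes are classically read through short motifs upstream. Capitals mark the core of the cAMP response element (TGACG, or CGTCA on the other strand) and the CArG box bound by serum response factor.
Fos (chr12:85473640-85473889, plus strand): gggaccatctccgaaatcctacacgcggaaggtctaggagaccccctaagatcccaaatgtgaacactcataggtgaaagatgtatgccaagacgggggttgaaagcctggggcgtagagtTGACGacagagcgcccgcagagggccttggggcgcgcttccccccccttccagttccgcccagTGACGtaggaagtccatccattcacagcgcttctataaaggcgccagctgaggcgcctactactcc
Egr2 (chr10:67537619-67537868, plus strand): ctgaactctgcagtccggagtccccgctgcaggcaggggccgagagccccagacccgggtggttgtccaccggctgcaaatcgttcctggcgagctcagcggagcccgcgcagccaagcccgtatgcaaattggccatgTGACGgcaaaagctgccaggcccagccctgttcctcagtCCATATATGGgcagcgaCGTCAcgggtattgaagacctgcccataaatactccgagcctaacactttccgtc
Nr4a1 (chr15:101266596-101266845, plus strand): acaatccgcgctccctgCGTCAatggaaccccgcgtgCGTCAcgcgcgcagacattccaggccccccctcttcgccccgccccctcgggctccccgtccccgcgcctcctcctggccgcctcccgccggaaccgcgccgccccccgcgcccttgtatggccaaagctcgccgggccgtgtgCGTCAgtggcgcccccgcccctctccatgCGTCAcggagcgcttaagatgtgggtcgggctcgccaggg
Nr4a2 (chr2:57124004-57124253, minus strand): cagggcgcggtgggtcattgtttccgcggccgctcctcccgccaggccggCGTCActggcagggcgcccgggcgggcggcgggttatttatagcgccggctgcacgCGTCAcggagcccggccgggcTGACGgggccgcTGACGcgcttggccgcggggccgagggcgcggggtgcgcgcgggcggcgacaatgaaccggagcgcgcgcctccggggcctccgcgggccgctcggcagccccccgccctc
Nr1d1 (chr11:98775378-98775627, minus strand): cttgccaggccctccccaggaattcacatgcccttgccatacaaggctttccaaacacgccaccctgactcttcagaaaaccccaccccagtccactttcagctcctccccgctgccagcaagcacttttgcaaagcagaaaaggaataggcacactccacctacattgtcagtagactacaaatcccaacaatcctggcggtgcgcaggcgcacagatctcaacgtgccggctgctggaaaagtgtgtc
The core of the cAMP response element was present before 6 of the 9 genes with a promoter and before 17.8% of all 32851 promoters cut to the same length. Its full 8-base form TGACGTCA was present before none of the 9 and before 1.55% of all. Within these 250 bases a CArG box was present only before Egr2 of the 9, against 1.47% of all. Bases further upstream were not searched. Egr1, Egr3 and Ier2 had no promoter that could be looked up and are not among these 9. The E-box CACGTG, read by clock factors, lay before Cry1 and 1 of several Egr2 starts, against 6.02% of all. The AGGTCA core read by nuclear receptors lay before Nr1d2 alone, against 14% of all. In the windows shown, Nr4a1 and Nr4a2 hold 4 cores each, Fos holds 2, and Egr2 holds 2 in all, with its CArG box between them. Of the immediate early genes with a promoter that is not shown, Junb holds 1 core and Ier3 holds 0 of these motifs. A gene was counted if any of its starts held the motif, and Egr2 has several, whereas the shares over all are of single promoters. The counts and shares are therefore in unlike units. These are matches of letters, not sites of measured binding.

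Egr1, a zinc-finger factor induced by serum, shear and injury, had the lowest p of the 26. It stood at 3.51 and 4.5 RPKM under NX/NG and at 8.72 and 9.08 RPKM after OGD-R, a log2 difference of 1.14 ± 0.15 (SE, n = 2 per environment). Nr4a1, an orphan nuclear receptor that restrains inflammatory genes, stood at 1.5 and 1.55 RPKM against 2.92 and 3.55 RPKM (1.03 ± 0.18). For both genes the 2 environments did not overlap and the gap between them was wider than the gap within either. Their choice by low p favours such separation, and 16.4% of all expressed genes did not overlap in the higher direction. Fos, a subunit of the AP-1 dimer, stood at 2.05 and 1.43 RPKM under NX/NG and at 3.13 and 3.06 RPKM after OGD-R (0.82 ± 0.23). Junb, a dimer partner of Fos, stood at 17.4 and 14.3 RPKM against 20.9 RPKM in both OGD-R libraries (0.40 ± 0.12). Ier3, which is induced by NF-kB and limits cell death, was the most abundant of the 9, at 67.3 and 71.3 RPKM against 87.5 and 90.5 RPKM. The smaller members rested on few reads. Egr2 was at 0.0996 and 0.145 RPKM under NX/NG and at 0.623 and 0.509 RPKM after OGD-R, with a mean of 14.8 reads. Egr3 was at 0.403 and 0.299 RPKM against 1.11 and 0.932 RPKM, with a mean of 38 reads. Other members of the same families did not pass this p. Jun stood at 26.5 and 22.8 RPKM against 23 and 25.3 RPKM, Fosl1 at 9.49 and 8.17 RPKM against 8.58 and 8.79 RPKM, and Atf3 at 7.11 and 7.33 RPKM against 7.47 and 5.72 RPKM. The phosphatases Dusp1, Dusp4 and Dusp6, which shut off MAP kinase signalling, had log2 differences of -0.06, -0.27 and 0.00. Without OGD-R replicate 3, 5 of the 26 were higher and 0 lower at this p, and without OGD-R replicate 1, 5 were higher and 2 lower.

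**Figure D2:**
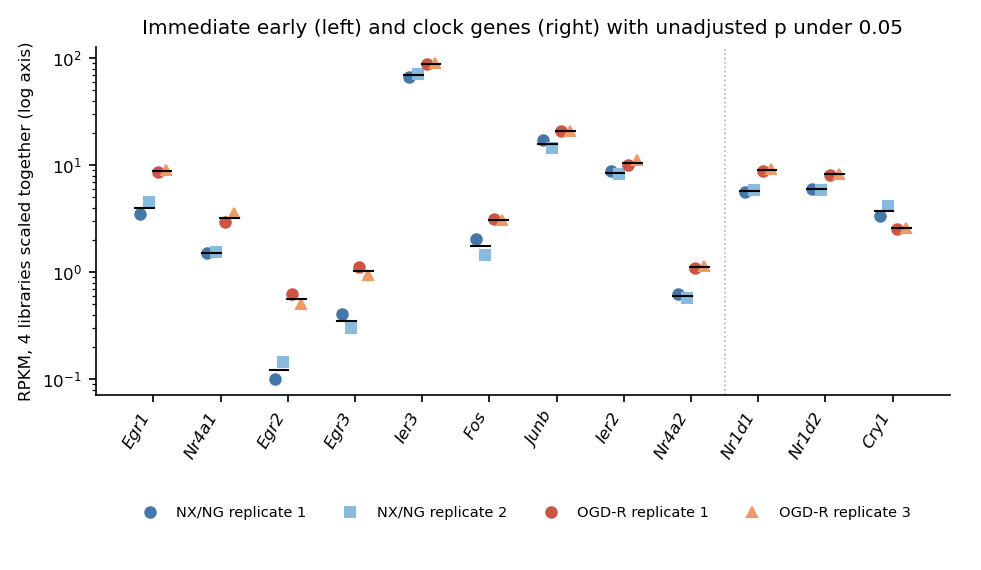
Level of each gene in the 4 Cort-/- libraries (RPKM, log axis), with a black line at the mean of each environment, for the 9 immediate early genes (left) and 3 clock genes (right) with an unadjusted limma p under 0.05. Both OGD-R libraries lie above both NX/NG libraries for 11 genes and below them for Cry1, which their choice by p favours. Over all genes that reached 1 RPKM in 2 or more libraries, these shares were 16.4% and 17.8%.

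Of the 16 clock genes tested, 2 were higher and 1 lower at an unadjusted p under 0.05. Nr1d1 (REV-ERB alpha), a nuclear receptor that represses the clock activator Arntl, stood at 5.64 and 5.91 RPKM under NX/NG and at 8.81 and 9.25 RPKM after OGD-R, a log2 difference of 0.64 ± 0.09. Nr1d2, its close relative, stood at 5.93 and 5.92 RPKM against 8.17 and 8.23 RPKM (0.46 ± 0.09). Cry1, a repressor of the clock activators, was lower, at 3.34 and 4.14 RPKM against 2.54 and 2.61 RPKM (-0.52 ± 0.16). Each of these 3 was separated between the environments, and the pairs of OGD-R values lay close together, a pattern that choice by low p favours. Arntl itself stood at 2.22 and 1.97 RPKM under NX/NG and at 1.77 and 1.78 RPKM after OGD-R, and Per1 at 3.38 and 2.94 RPKM against 3.38 and 3.47 RPKM, neither past this p. Serum and medium change are known to set the phase of cultured cells, and their part here was not tested. Nr1d1 shares its end with Thra on the other strand, and whether reads were counted by strand was not given in the sources used here.

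Collagen chains formed the other large group. Of 23 collagen chains tested, 8 were higher and 0 lower at an unadjusted p under 0.05, with a median log2 difference of 0.28. Col1a1, a chain of type I collagen, stood at 70.5 and 48.6 RPKM under NX/NG and at 119 and 139 RPKM after OGD-R (1.13 ± 0.22). Col1a2, its partner chain, stood at 25.8 and 15.6 RPKM against 39.8 and 62.7 RPKM (1.31 ± 0.35). The NX/NG libraries differed among themselves here, replicate 1 being higher than replicate 2 for both chains, though not as high as either OGD-R library. Col3a1 had 28.7 and 21.7 RPKM against 38.2 and 44.8 RPKM, and Col5a1, which nucleates type I fibrils, had 25.6 and 18.7 RPKM against 36.4 and 37.8 RPKM. Col6a3, a chain of the microfibrillar type VI collagen, had the widest gap, from 0.601 and 0.591 RPKM to 3.79 and 1.82 RPKM (1.98 ± 0.41). Col11a1, Col5a3 and Col6a2 complete the 8. The anchoring collagen Col7a1, which was in no list and is named for its low p among genes with at least 50 reads on average, had 3.75 and 3.08 RPKM against 6.03 and 6.08 RPKM (0.82 ± 0.14). Interstitial chains were also among the 15 that did not pass this p. Col5a2, a partner chain of Col5a1, stood at 94.1 and 84.8 RPKM against 84 and 101 RPKM (0.04). Col12a1 stood at 9.97 and 7.41 RPKM against 7.26 and 11.5 RPKM (0.09), and Col6a1 at 37.2 and 26.3 RPKM against 40.9 and 66.2 RPKM (0.73). Of the 23 log2 differences, 19 were above 0 and 4 below. The abundant basement membrane chains did not pass this p either, and whether they differed from the interstitial chains was not tested. Col4a1 stood at 606 and 605 RPKM against 719 and 637 RPKM, Col4a2 at 510.4 and 489 RPKM against 594 and 535 RPKM, and Col18a1 at 187 and 209 RPKM against 218 and 197 RPKM. Leaving out either OGD-R library left 3 of the 23 chains higher, with 1 lower without replicate 1 and 0 lower without replicate 3.

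Other matrix genes, proteases and inhibitors held 7 of 35 members higher and 0 lower, with a median of 0.25. Spp1 (osteopontin), a secreted phosphoprotein of injured tissue, was the most abundant of the 7, at 374 and 550.4 RPKM under NX/NG and at 884 and 904 RPKM after OGD-R (0.98 ± 0.30). Gm42793, which also ranked among the higher genes, lies within Spp1 on the same strand, and its reads cannot be assigned to it with certainty. Timp1, an inhibitor of matrix metalloproteinases, had 88 and 83.9 RPKM against 122 and 176 RPKM (0.77 ± 0.21). The proteases Mmp2 and Mmp14 had smaller differences with tight pairs. Mmp14, the membrane-bound protease that activates Mmp2, stood at 26.2 and 26.4 RPKM against 33.3 and 33.0 RPKM (0.33 ± 0.07), and Mmp2 at 48.7 and 48.0 RPKM against 58.9 and 64 RPKM (0.34 ± 0.09). Has2, which makes hyaluronan, stood at 0.859 and 0.815 RPKM against 2.8 and 1.45 RPKM (1.18 ± 0.38). Adamts2, which trims procollagen, and Fbn1, the microfibril protein, complete the 7. Mmp3 and Mmp10 were high only in OGD-R replicate 1, Mmp3 at 11.8 RPKM there and 5.04 RPKM in replicate 3, so neither separated the environments. Without OGD-R replicate 3, 6 of the 35 were higher and 0 lower, and without replicate 1, 5 were higher and 3 lower.

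Growth factor genes of the IGF, PDGF and FGF families had 4 of 21 members higher and 0 lower. Igf2, a fetal growth factor, stood at 0.887 and 0.747 RPKM under NX/NG and at 2.29 and 6.26 RPKM after OGD-R (2.09 ± 0.53), with the OGD-R libraries far apart. Gm49394 overlaps Igf2 on the same strand and had nearly the same values. Fgf2 stood at 1.26 and 1.56 RPKM against 2.78 and 2.33 RPKM (0.81 ± 0.21). Pdgfc had a log2 difference of 0.54 ± 0.17 and the receptor Pdgfrb one of 0.69 ± 0.23. Igf1, named after its values were seen, stood at 1.23 and 1.64 RPKM against 1.21 and 0.546 RPKM. Without OGD-R replicate 1, 2 of the 21 were higher, and without replicate 3, 1.

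**Figure D3:**
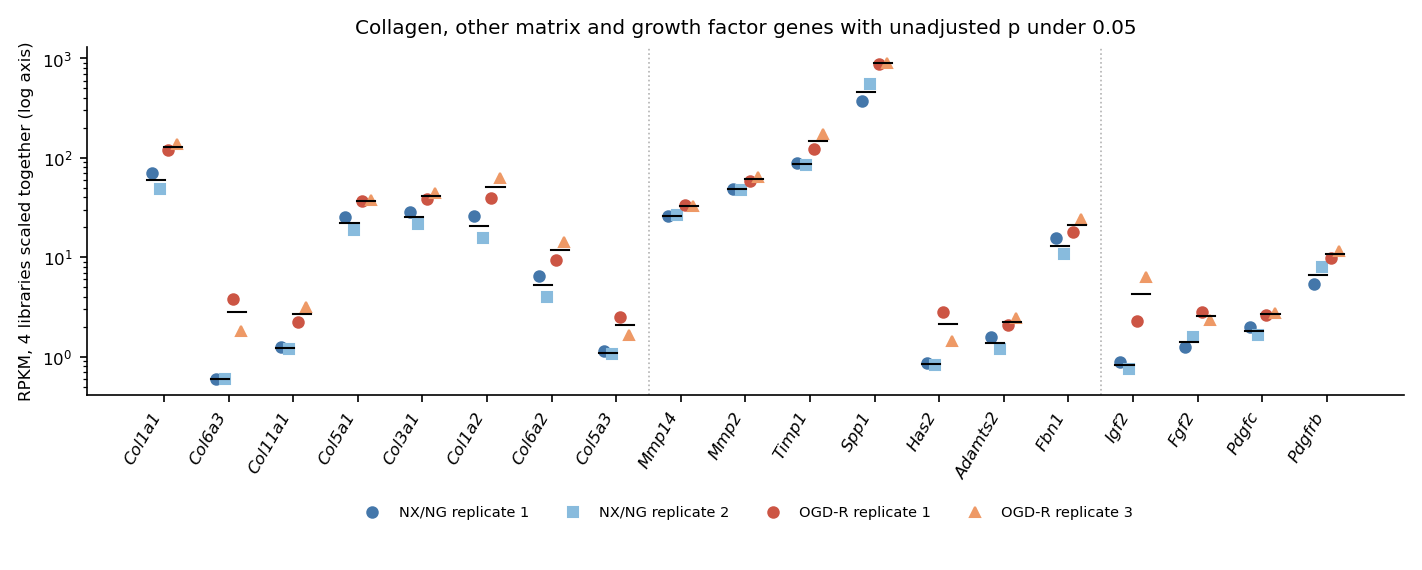
Level in the 4 Cort-/- libraries (RPKM, log axis), with a black line at the mean of each environment, for 8 collagen chains (left), 7 other matrix genes (middle) and 4 growth factor genes (right) with an unadjusted limma p under 0.05. All 19 genes have both OGD-R libraries above both NX/NG libraries, which their choice by p favours. The same held for 16.4% of all genes that reached 1 RPKM in 2 or more libraries. The OGD-R pair is widest apart for Igf2, at 2.29 and 6.26 RPKM.

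Several of these genes also mark mural cells and fibroblasts, which can persist in primary BEC cultures. The summed level of 10 fibroblast and leptomeningeal markers was 132 and 91.8 RPKM under NX/NG and 205 and 261 RPKM after OGD-R, and 4 of the 10 (Col1a1, Col1a2, Col3a1 and Igf2) were higher at an unadjusted p under 0.05. Without OGD-R replicate 1, 1 of the 10 was higher, and the same count held without replicate 3. Of the other 6 markers, Foxc2 stood at 4.78 and 3.68 RPKM against 4.32 and 6.64 RPKM and Dcn at 0.928 and 0.564 RPKM against 0.812 and 0.926 RPKM. Pdgfra lay between 0.309 and 0.739 RPKM, Lum at 0.0672 RPKM or less, Slc6a13 at 0.0496 RPKM or less and Slc47a1 at 0.0501 RPKM or less. The sum of 7 pericyte markers was 7.93 and 10.7 RPKM against 15.3 and 17.3 RPKM, carried by Pdgfrb and Cspg4. Cspg4 (NG2), a proteoglycan of pericytes, stood at 0.709 and 1.42 RPKM under NX/NG and at 3.67 and 4.64 RPKM after OGD-R (1.93 ± 0.37). The other pericyte genes were low in all libraries, with Rgs5 at 1.53 and 1.1 RPKM against 1.55 and 0.967 RPKM and Kcnj8 at 0 in 3 libraries. Smooth muscle markers were abundant and their sum overlapped between the environments, at 1650 and 1380 RPKM against 1000 and 1490 RPKM, although all 8 log2 differences were below 0. Of these 8, Myh11, the smooth muscle myosin, alone passed this p, at 2.21 and 1.48 RPKM against 0.635 and 0.758 RPKM (-1.27 ± 0.30). In bulk RNA, a change in the number of cells of a type and a change in RNA per cell cannot be told apart, and the part of these cells in the collagen values was not tested.

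Among lower genes with at least 50 reads on average, Gm37565, Ch25h and Txnip had the lowest p. Txnip, an inhibitor of thioredoxin that rises with glucose and restrains its uptake, stood at 41.7 and 45.8 RPKM under NX/NG and at 27.2 RPKM in both OGD-R libraries (-0.68 ± 0.09). Gm15441, on the other strand across Txnip, had 24.6 and 27.5 RPKM against 16 and 16.7 RPKM, and without knowledge of strand the reads of these 2 genes cannot be told apart. Txnip was the single one of 10 glucose-responsive genes past an unadjusted p of 0.05, since its relative Arrdc4 stood at 19.9 and 24.3 RPKM against 20.6 and 14.3 RPKM. Ch25h, which makes the signalling sterol 25-hydroxycholesterol, stood at 15.6 and 15.9 RPKM against 9.58 and 9.82 RPKM (-0.69 ± 0.08). Ehd3, an endocytic ATPase, had 6.36 and 6.37 RPKM against 4.18 and 3.89 RPKM (-0.65 ± 0.11). The linker histone H1f2 had 31.2 and 28.8 RPKM against 21.2 and 20.4 RPKM (-0.53 ± 0.09). C1galt1c1, the chaperone of an O-glycosylation enzyme, had 14.7 and 14.3 RPKM against 10.4 and 10.1 RPKM (-0.49 ± 0.08). Tgm2, a transglutaminase, had a log2 difference of -0.40 ± 0.08, and Gm20412, which overlaps it on the other strand, one of -0.40 ± 0.08. For Txnip, Ch25h, Ehd3, H1f2 and C1galt1c1, the gap between the environments exceeded the gap within each. These genes were chosen by low p among genes without overlap, which favours such a gap. The limit of 50 reads was set after the values were seen.

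**Figure D4:**
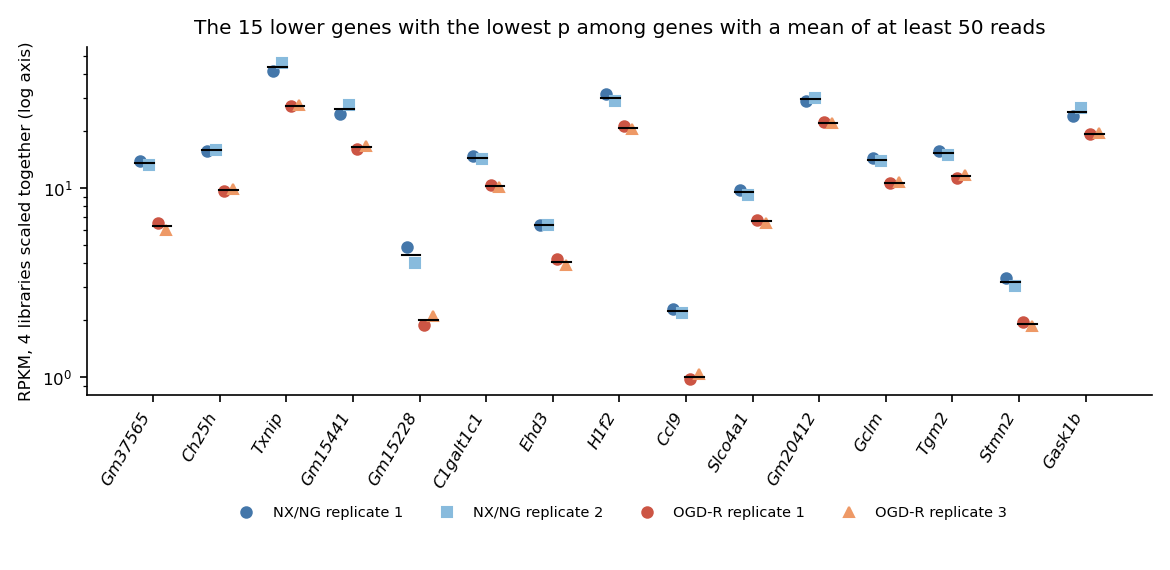
Level in the 4 Cort-/- libraries (RPKM, log axis), with a black line at the mean of each environment, for the 15 genes with the lowest unadjusted limma p among those lower after OGD-R, not overlapping and with a mean of at least 50 reads. Txnip, for example, sits at 41.7 and 45.8 RPKM under NX/NG and at 27.2 RPKM in both OGD-R libraries.

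Hypoxia genes showed no common direction. Of 25 HIF targets and regulators, 2 were higher and 1 lower at an unadjusted p under 0.05, with a median of -0.07. Vegfa, the main angiogenic factor, stood at 5.27 and 5.32 RPKM under NX/NG and at 7.94 and 8.44 RPKM after OGD-R (0.62 ± 0.09), and Lox, which crosslinks collagen, at 8.27 and 7.32 RPKM against 10.03 and 14.2 RPKM (0.61 ± 0.20). Egln1, an oxygen sensor that marks HIF for decay, was lower, at 14.4 and 13.4 RPKM against 11.1 and 12.1 RPKM. Classical targets did not pass this p: Slc2a1, the glucose transporter of the barrier, stood at 50.7 and 43.8 RPKM against 40.1 and 36 RPKM, and Adm at 67.7 and 80.2 RPKM against 69.4 and 55.8 RPKM. Angptl4, named after its values were seen, stood at 21 and 27.3 RPKM against 19.1 and 11.7 RPKM. Without OGD-R replicate 1, 2 of the 25 were higher and 3 lower, and without replicate 3, 2 were higher and 0 lower. Of 21 glycolytic genes, Hk2, the inducible hexokinase, was the single one higher, at 1.66 and 1.76 RPKM against 2.74 and 2.55 RPKM (0.60 ± 0.16), and 0 were lower. Ldha stood at 127 and 123 RPKM against 124 and 166 RPKM, and Pgk1 at 132 and 137 RPKM against 128 and 141 RPKM. The median log2 difference of the glycolytic genes was 0.15 without OGD-R replicate 1 and -0.03 without replicate 3.

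Several stress and biosynthetic lists had no member past this p. None of 27 genes of the unfolded protein and integrated stress response, of 21 p53 and cell death genes, of 27 cholesterol and fatty acid genes, of 26 TGF-beta, BMP and Wnt genes or of 13 mitochondrially encoded genes was higher or lower at an unadjusted p under 0.05. Without OGD-R replicate 1, the median log2 difference was 0.03 for the unfolded protein genes, 0.04 for the p53 genes and 0.06 for the TGF-beta, BMP and Wnt genes. The mitochondrially encoded genes leaned lower, with 12 of 13 log2 differences below 0 and a median of -0.205. Their median was -0.39 without OGD-R replicate 1 and -0.01 without replicate 3. In these lists without a member past this p, the members with the lowest p were Slc7a5 (log2 difference -0.27), Bbc3 (0.27), Nsdhl (0.19), Notum (0.83) and mt-Nd4l (-0.91). The 2 largest rested on few reads. Notum had a mean of 10 reads. For mt-Nd4l there were 7 reads in each library except OGD-R replicate 1, which had 2. Hsph1, a chaperone of the HSP110 family, was the single lower one of 16 heat shock genes, at 13.3 and 12.9 RPKM against 10.2 and 10.5 RPKM (-0.34 ± 0.08). Among 22 NRF2 targets and antioxidant genes, Gclm and Hmox1 were lower and Mt1 higher. The balance of this list depended on the OGD-R library, with 5 higher and 1 lower without replicate 1 and 1 higher and 4 lower without replicate 3. Gclm, a subunit of the enzyme limiting glutathione synthesis, had 14.3 and 13.8 RPKM against 10.6 and 10.7 RPKM (-0.40 ± 0.08). Hmox1, which degrades haem, had 191 and 167 RPKM against 123 and 136 RPKM (-0.46 ± 0.14), and the metallothionein Mt1 had 5.98 and 5.74 RPKM against 8.56 and 13.1 RPKM (0.84 ± 0.23). Of 31 cell cycle and replication genes, Top2a, Plk1 and Aurkb were higher and 0 lower, the mitotic kinase Plk1 standing at 12.7 and 11.6 RPKM against 14.7 and 16.2 RPKM (0.34 ± 0.10). With OGD-R replicate 1 left out, 7 of the 31 were higher, and with replicate 3 left out, 2. The list's median was 0.10, and 13 of its members had both OGD-R libraries above both NX/NG libraries, where the share over all expressed genes was 16.4%.

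Inflammatory genes were mixed. Of 29 chemokine, cytokine and NF-kB genes, 3 were higher and 2 lower at an unadjusted p under 0.05. Without OGD-R replicate 3, 7 were higher and 3 lower, and without replicate 1 the counts were 3 and 2. Il11, a cytokine of the IL-6 family linked to fibrosis, stood at 1.75 and 2.25 RPKM under NX/NG and at 4.39 and 3.6 RPKM after OGD-R (0.97 ± 0.20). Nfkb2 and Cx3cl1 had log2 differences of 0.29 and 0.24. The chemokine Ccl9 was lower, at 2.28 and 2.19 RPKM against 0.973 and 1.04 RPKM (-1.08 ± 0.19), and Ccl5, with a mean of 4.75 reads, stood at 0.705 and 0.6 RPKM against 0.0882 and 0.225 RPKM. Ccl2, the most abundant chemokine of the list, stood at 324 and 394 RPKM against 327 and 263 RPKM, and Il6 stayed below 0.34 RPKM in all libraries. Interferon-stimulated genes had 1 lower of 30 (Rsad2, at 1.44 and 1.5 RPKM against 0.898 and 0.615 RPKM) and 0 higher. The NX/NG libraries differed widely here, as Isg15 stood at 3.73 RPKM in replicate 1 and 15.9 RPKM in replicate 2. Of 12 leukocyte adhesion genes, Cd34 was lower, at 63.2 and 69.5 RPKM against 51.4 and 47.4 RPKM (-0.42 ± 0.10), while Icam1 stood at 34.6 and 28.3 RPKM against 34 and 42.6 RPKM and Vcam1 at 70.2 and 83.5 RPKM against 75.7 and 61.4 RPKM. Nos2, the inducible nitric oxide synthase, named after its values were seen, stood at 2.88 and 4.28 RPKM against 5.97 and 1.05 RPKM, so the OGD-R libraries lay on either side of the controls.

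Junction genes and transporters of the barrier had members in both directions. Of 25 junction genes, 1 was higher and 1 lower at an unadjusted p under 0.05. Cdh11, a mesenchymal cadherin, was higher, at 16.3 and 13 RPKM against 21.8 and 31 RPKM (0.83 ± 0.22). Cldn5, the main claudin of the barrier, stood at 136 and 121 RPKM under NX/NG and at 115 and 103 RPKM after OGD-R, a difference of -0.24 ± 0.13 that did not pass this p, and the scaffold Tjp1 stood at 82.6 and 97.1 RPKM against 95.7 and 57.7 RPKM. Of 25 barrier transporters, Slco2a1, Lrp1 and Aqp1 were higher and Slco4a1 and Abcg2 lower, 3 and 2 members where the shares over all genes were 2.19% and 1.85%. Without OGD-R replicate 3, 0 were higher and 2 lower, and without replicate 1, 2 were higher and 6 lower. Slco4a1, an organic anion transporter, had 9.77 and 9.17 RPKM against 6.79 and 6.5 RPKM (-0.50 ± 0.09). Abcg2, an efflux pump of the barrier, had 12.3 and 12 RPKM against 10.1 and 10.5 RPKM (-0.24 ± 0.08). Aqp1, a water channel also found in choroid plexus, had 2.09 and 2.44 RPKM against 3.71 and 9.87 RPKM, a difference carried mainly by OGD-R replicate 3. The other 7 choroid plexus markers did not pass this p, with Ttr, their defining member, at 1.21 RPKM or less and Clic6 between 12.9 and 17.7 RPKM.

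Of 27 genes of VEGF and angiopoietin signalling and vascular tone, Ptgs1, the constitutive cyclooxygenase, was higher, at 6.54 and 6.69 RPKM against 10.2 and 11.2 RPKM (0.69 ± 0.10). Nos3, the endothelial nitric oxide synthase, was lower, at 43 and 40.8 RPKM against 33.7 and 35.4 RPKM (-0.28 ± 0.08). Of 25 Notch and endothelial transcription factor genes, Sox18, an arterial and lymphatic regulator, was lower, at 78.5 and 72.2 RPKM against 59.6 and 60.04 RPKM (-0.33 ± 0.09), and Nr2f2 (COUP-TFII), which specifies veins, was higher, at 2.91 and 2.62 RPKM against 3.59 and 3.86 RPKM (0.42 ± 0.14). Leaving out OGD-R replicate 1 gave 1 higher and 4 lower of these 25, and leaving out replicate 3 gave 0 and 0. Among the 13 endothelial markers, Vwf, the clotting factor carrier stored in endothelium, alone passed this p, at 10.1 and 9.8 RPKM against 12.9 RPKM in both OGD-R libraries (0.37 ± 0.08). The list leaned the other way, with 10 log2 differences below 0, 3 above and a median of -0.11. Tek stood at 13.3 and 16 RPKM against 12 and 10.9 RPKM (-0.35 ± 0.13). Emcn stood at 183 and 197 RPKM against 138 and 158 RPKM (-0.36 ± 0.14). Slit3, a guidance ligand in no list, stood at 0.586 and 0.827 RPKM against 1.95 and 1.84 RPKM (1.32 ± 0.27).

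A list of 17 wound and repair genes named in the study's text held 9 higher and 0 lower, with a median of 0.72. The study names these genes as upregulated after OGD-R in wild-type cells, whose libraries lie outside this comparison. For Cort-/- cells it reports no differential expression of them over the same transition. The study does report other genes as changed over this transition in Cort-/- cells, with Nos2 among those lower. In the present comparison 0 of 26523 genes passed correction for multiple testing. That none of the 17 passed therefore says nothing particular about them, and the 9 rest on an unadjusted p. The study's statement on Cort-/- cells draws on libraries that include the ones used here, so the count is not independent evidence of a direction. Besides the members described above, Mmp28 stood at 4.19 and 4.42 RPKM against 6.78 and 5.19 RPKM and did not pass this p. Il33, Gbp2, Gbp3, Casp12 and Col15a1 overlapped between the environments, with log2 differences of 0.69, 0.18, -0.20, -0.01 and 0.28. Without OGD-R replicate 1, 4 of the 17 were higher and 0 lower, and without replicate 3, 9 were higher and 0 lower.

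The 2 OGD-R libraries differed from each other in several sets of RNA. Replicate 3 was poor in structural RNAs. Rmrp stood at 230.1 and 316 RPKM under NX/NG and at 158 RPKM in OGD-R replicate 1 but at 1.28 RPKM in replicate 3, and Rpph1 at 313.9 and 506.5 RPKM, then 228 and 1.58 RPKM. Epithelial transcripts were mostly higher in replicate 1, with an exception given below. The keratin Krt8 stood at 0.0864 and 2.69 RPKM under NX/NG, at 11.8 RPKM in OGD-R replicate 1 and at 0.0736 RPKM in replicate 3, and Cdh1 (E-cadherin) at 0, 0.288, 2.78 and 0.063 RPKM in the same order. Krt18 was present in every library, at 4.59 and 11 RPKM, then 20.7 and 8.52 RPKM. Krt19 was instead highest in replicate 3, at 7.35 and 4.88 RPKM, then 5.34 and 11.2 RPKM. The sum of 13 epithelial markers was 15.8 and 24.6 RPKM under NX/NG and 52.6 and 22.0 RPKM after OGD-R, and none of the 13 passed an unadjusted p of 0.05. Among genes with at least 50 reads on average, others were higher in replicate 3. Efemp1, a matrix glycoprotein, stood at 25.9 and 31.5 RPKM under NX/NG, at 20.7 RPKM in OGD-R replicate 1 and at 63.02 RPKM in replicate 3, and Actg2, a smooth muscle actin, at 15 and 11.6 RPKM, then 6.47 and 20.1 RPKM. Igf2 and Aqp1, described above, were also higher in replicate 3. Pcdh12, an endothelial protocadherin named after its values were seen, stood at 5.52 and 7.48 RPKM against 5.58 and 2.59 RPKM. The sum of 9 microglial and macrophage markers lay between 4.05 and 4.97 RPKM in the 4 libraries, with Itgam, Tyrobp and C1qa undetected, and the sum of 6 neuron markers below 0.94 RPKM. The sum of 6 astrocyte markers lay between 11 and 13.8 RPKM, with Aqp4 undetected, and that of 4 oligodendrocyte markers between 0.312 and 0.515 RPKM, and none of the members of these 4 lists passed this p.

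**Figure D5:**
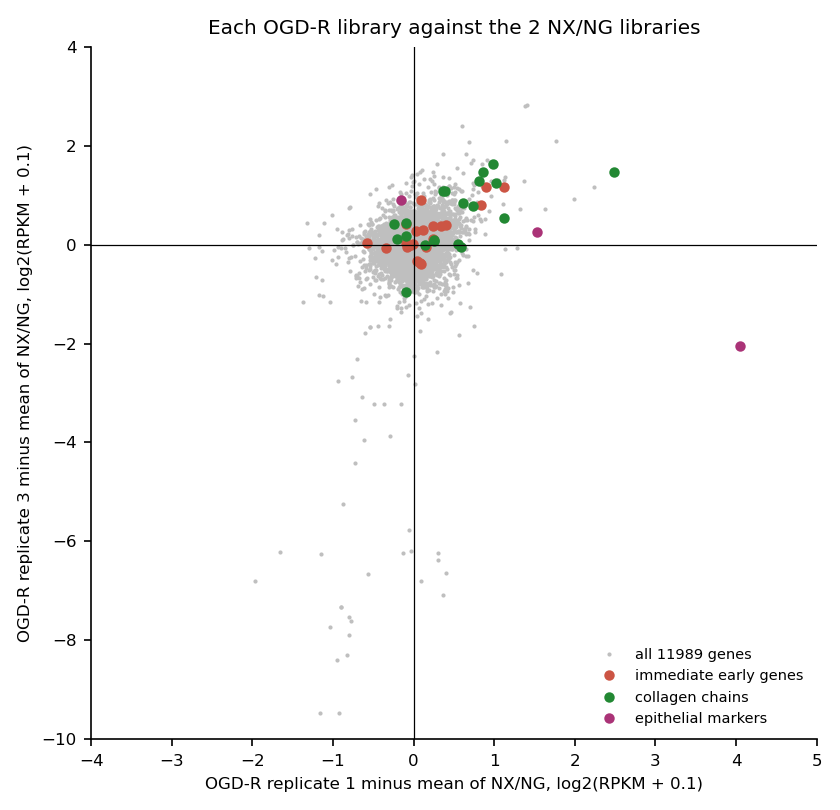
Log2(RPKM + 0.1) of OGD-R replicate 1 (horizontal) and of replicate 3 (vertical) minus the mean of the 2 NX/NG libraries, for the 11989 genes with a mean of at least 50 reads (grey) with immediate early genes (red), collagen chains (green) and epithelial markers (purple). Both axes share the same control libraries, so a slope is built in. The grey points far below 0 on the vertical axis include structural RNAs such as Rmrp and Rpph1 that were low in replicate 3, and the purple point at the far right is Krt8.

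Ranked by p alone, the leading genes were small RNAs with very few reads. The 15 leading higher genes among those 14040 were all shorter than 200 bases, 6 of them microRNA genes, and none had more than 4 reads in any library. Mir3063 and Mir7022 led them, both at 0 under NX/NG, with a mean over the libraries of 2 and 1.25 reads. Of the 15 leading lower genes, 12 were shorter than 200 bases, and 12 had under 20 reads in every library. Gm23287 and Mir1949 led these, with a mean of 2 and 8 reads, and Gm37565, at 13.8 and 13.2 RPKM against 6.55 and 6.02 RPKM, and Ch25h were among the exceptions. No fold is given for the genes at 0 in one environment, since both environments lay near the limit of 3 reads that a count of 0 allows.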

How the data were processed

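RNA of Cort-/- BEC cultures was sequenced by the study, the labels naming a stranded mRNA kit. RPKM values were computed by the authors with their reanalyzerGSE pipeline and deposited as 1 table per environment, each scaled on its own. The submitters' processing notes name edgeR, and the aligner, counter, genome build, annotation and use of strand were not given in the sources used here. A further 10 per-library columns of expression categories were not used, nor were the authors' tables of fold changes and p-values.

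Multiplying RPKM by length gave whole steps (tolerance 0.05) for at least 99.9958% of values above 0, and the reads so recovered, nearly equal in number across libraries for no stated reason, were rescaled together with trimmed mean of M values (own code) over the 4 libraries and 27321 genes with equal lengths in both tables. Genes in a single table (2644 and 2454) had at most 5 and 4 reads in a Cort-/- library and were left out. OGD-R was compared with NX/NG by limma 3.58.1 under R 4.3.3, with trended empirical Bayes moderation of log2(RPKM + 0.1), which understates differences of genes near 0, with 2 residual degrees of freedom, Benjamini-Hochberg adjustment and an FDR threshold of 0.05. The unit being RPKM, count models were replaced by limma and limma-voom. P-values measure the spread between pooled cultures, intervals and floors cover counting error only, and a count of 0 allows up to 3 reads.

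Genes were named by a rule: the 15 lowest p per direction among genes that reached 1 RPKM in 2 or more libraries without overlap of the environments, up to 4 members per list by p, and genes named in the study's text. Others are marked as chosen after their values were seen. Members and lists were chosen with earlier results of these data known. Overlapping genes were looked up by symbol in GENCODE vM21 (116 of 124 named genes matched). Alternatives were pseudocount 1, filters, 3 other scalings, limma-voom, fits with the wild-type groups (with and without a term for low ribosomal RNA) and leaving out each library. The result for 1 gene is not reported here.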

Additional observations from a re-analysis of the deposited data

How the results depend on the processing

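No gene passed an FDR of 0.05 in any alternative run. The lowest adjusted p was 0.0721, in a fit of all 4 groups of the series. The 581 higher and 490 lower genes at an unadjusted p under 0.05 became 294 and 241 with a filter at 1 RPKM in 2 or more libraries and 274 and 178 with a filter at a mean of 50 reads, which was added after seeing the data; both filters test fewer genes. With RPKM as deposited, 884 were higher. With a library left out, the higher count ranged from 537 to 1779 and the lower count from 712 to 1798. Leaving out OGD-R replicate 1 gave the highest of both, and leaving out OGD-R replicate 3 gave 1193 and 786; the cause was not tested. Of 124 named genes, the 101 with an unadjusted p under 0.05 kept their direction in every alternative run. That p came from the same libraries. Where both OGD-R libraries lie on one side of both NX/NG libraries, leaving out a library can hardly turn the direction. The kept directions are therefore no separate support. Among the other named genes, Casp12 turned to 0.0808 with library totals, 0.0135 with quantile scaling, 0.0672 as deposited and 0.18 with the ribosomal RNA term, which also turned Nos2 to 0.44 and Sstr2 to 0.0047. With a library left out, log2 differences ranged from -0.16 to 0.13 for Casp12, -0.0418 to 0.59 for Col15a1, -0.0947 to 0.48 for Gbp2, -0.74 to 0.35 for Gbp3, -0.20 to 1.55 for Il33, -0.51 to 1.96 for Mmp10, -0.077 to 1.14 for Mmp3 and -1.65 to 0.75 for Nos2. No paired analysis was possible because the environments share a single replicate number. Genes with few reads give no usable fold at this depth.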

Other observations

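Some genes in no list had low p values among those with at least 50 reads on average, and are given here as values chosen after they were seen. Ank, which exports pyrophosphate and restrains mineralisation, stood at 17.2 and 17.1 RPKM under NX/NG and at 24.5 and 22.0 RPKM after OGD-R (log2 difference 0.44 ± 0.09, SE). Stmn2, a microtubule regulator best known from neurons, stood at 3.35 and 3.03 RPKM against 1.96 and 1.85 RPKM (-0.71 ± 0.15). Gask1b, a Golgi protein also known as Fam198b, stood at 24 and 26.4 RPKM against 19.3 and 19.4 RPKM (-0.38 ± 0.09). Gm15228 stood at 4.85 and 3.99 RPKM against 1.9 and 2.12 RPKM (-1.10 ± 0.17). Gm44662, which overlaps Usf2 and the hepcidin genes on the other strand, stood at 8.83 and 8.59 RPKM against 12.5 and 11.5 RPKM (0.46 ± 0.09). For each of these genes the environments did not overlap, as for 16.4% of expressed genes in the higher and 17.8% in the lower direction, and none passed an FDR of 0.05.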
